A study of Arabidopsis thaliana and Cucumis sativus and Glycine max with 60 samples.

Results

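The primary root of a maize seedling was followed here at the step from cell division to cell elongation. The 3 libraries of the elongation zone (EZ) were set against the 3 libraries of the meristematic zone (MZ), and the 3 libraries of the differentiation zone (DZ) served to place the EZ between its neighbours. All maize plants were of the inbred line B73 and were 4 days from plating, untreated, grown on agarose-solidified MS medium at a constant temperature in constant light. The zones were cut along the axis of the growing root tip, so each library is a bulk sample of all cell types of its zone. In such samples fewer cells of a type and less RNA per cell cannot be told apart. The maize rows were those whose ID starts with GRMZM or contains _FG, which are 109949 of the 311875 rows that hold 6 of the 7 species of the series.

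In a growing root, cells divide in the meristem behind the root cap, then leave it, stop dividing and lengthen many times over as the vacuole fills and the wall yields, and only then mature into hairs, conducting tissue and barrier layers. Distance from the tip therefore orders the cells by developmental age. In grasses the elongating wall is rich in arabinoxylan and mixed-linkage glucan, unlike the xyloglucan-rich wall of most other flowering plants. The comparison of EZ with MZ asks which genes change as maize root cells pass from division to elongation.

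The tables used here do not pair the maize IDs with gene names. The gene names at hand were those of Arabidopsis, and 0 of the 109949 maize IDs matched them. Maize genes are therefore described by their levels and by how they group, with 2 IDs named in each direction and no function given to any of them. For the same reason the zone labels were not checked against marker genes, and levels of cell cycle, wall, root cap or root hair genes are not analysed here.

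Of the 109949 maize rows, 63701 (57.9%) were listed at 0 in all 9 libraries, and 46248 were above 0 in at least 1. A library held between 35137 and 36702 rows above 0. A gene was tested if 3 or more of the 9 libraries reached 1 RPKM, which 26866 genes did. RPKM, the unit deposited by the authors, is a read number scaled to gene length and to the mapped reads of the library. The depth of the libraries is unknown, since the table gives no counts. A rough estimate from the low values put the depth of the 9 libraries at 0.953 to 1.08 times that of MZ replicate 1. It holds only if those values mostly stand for single reads, which cannot be checked without counts.

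Libraries grouped by zone. Over the tested genes, log2(RPKM + 1) values of 2 EZ libraries correlated at 0.937 to 0.952, those of 2 MZ libraries at 0.944 to 0.957 and those of 2 DZ libraries at 0.917 to 0.929. The EZ correlated with the MZ at 0.771 to 0.856 and with the DZ at 0.684 to 0.787, and the DZ correlated with the MZ at 0.441 to 0.551. These values are across genes, which are not independent replicates. The median SD of a gene's 3 replicate values was 0.23 log2 units in EZ, 0.19 in MZ and 0.28 in DZ.

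On the line through all tested genes from the mean MZ, set to 0, to the mean DZ, set to 1, EZ replicates 1, 2 and 3 lay at 0.494, 0.379 and 0.424. EZ replicates 1, 2 and 3 thus all stood nearer to the mean MZ than to the mean DZ. EZ replicate 1 stood farthest along, close to midway. The positions were computed with the pseudocount of 1 RPKM alone, so their dependence on it was not tested. The MZ libraries lay at -0.0197, -0.0250 and 0.0448, with MZ replicate 3 the one displaced towards the EZ. No EZ library overlapped the range of either neighbouring zone.

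**Figure D1:**
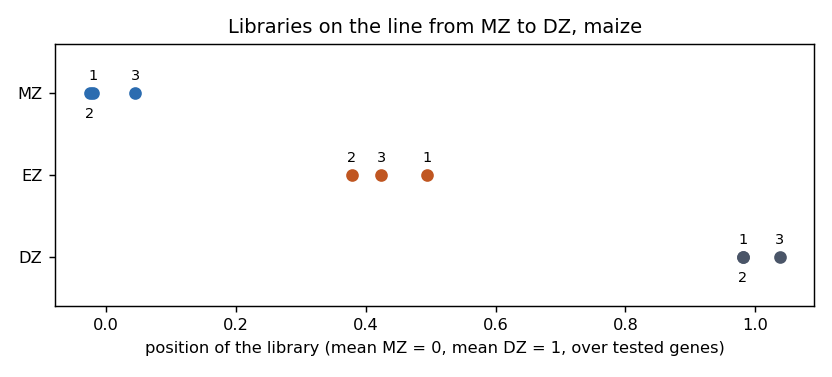
Position of each maize library on the line from the mean MZ (0) to the mean DZ (1), computed over the 26866 tested genes on the log2(RPKM + 1) scale. Each point is 1 library and its number is the replicate. The 3 EZ libraries lie between 0.379 and 0.494, apart from the MZ and the DZ libraries.

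Between the zones 6567 genes changed, 24.4% of those tested. By limma with Benjamini-Hochberg adjustment, 3184 genes were higher in EZ than in MZ (11.9% of the genes tested) and 3383 were lower (12.6%). A call needed both an adjusted p below 0.05 and a 2-fold or larger change on the log2(RPKM + 1) scale. The median change over all tested genes was -0.07 log2 units. A further 462 genes with a rise and 375 genes with a fall of 2-fold or more did not pass the test. Of the called genes, 3161 of the higher ones had all 3 EZ libraries above all 3 MZ libraries, and 3346 of the lower ones had all EZ libraries below. Over all tested genes, whether called or not, the EZ libraries were all above the MZ libraries in 27.1% and all below them in 34.1%.

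Which direction held more genes depended on the settings. The lower genes were more numerous in 14 of 17 alternatives. The higher genes were more numerous with a minimum of 5 RPKM (2851 higher and 2480 lower), without MZ replicate 3 (3455 and 3398) and without EZ replicate 1 (2870 and 2815). The same 2356 genes were called higher, and the same 2411 lower, in the fit of all 9 libraries and in each of the 9 fits that left out 1 library. These are 74.0% of the higher and 71.3% of the lower genes.

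**Figure D2:**
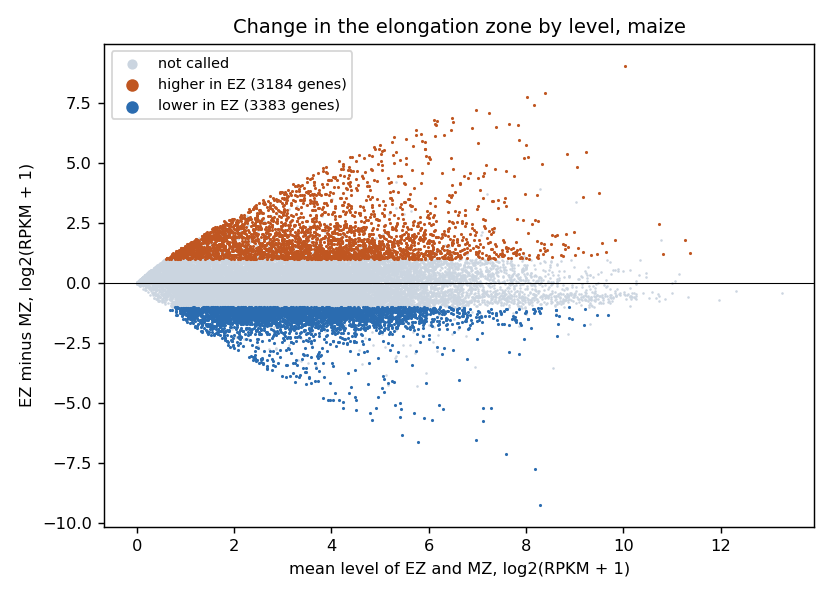
Change of each of the 26866 tested maize genes (EZ minus MZ, vertical axis) against its mean level over both zones (horizontal axis), both on the log2(RPKM + 1) scale. Each point is 1 gene, and colours mark the 3184 genes called higher and the 3383 called lower in EZ. The fan at the left edge is set by the pseudocount of 1 RPKM, which limits the change that a low gene can show.

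The rises were larger than the falls. The higher genes had a median change of 1.60 log2 units (quartiles 1.23 and 2.22), and the lower genes one of -1.33 (quartiles -1.61 and -1.15). A change of at least 4-fold was reached by 1017 higher and 351 lower genes, one of at least 8-fold by 371 and 119, and one of at least 16-fold by 154 and 50. At 32-fold the numbers were 62 and 22, and at 64-fold 23 and 6. Falls were thus mostly small, with 351 of the 3383 lower genes at 4-fold or more. This excess of large rises was found in 17 of 17 alternatives at each of 4-, 8-, 16- and 32-fold. The alternatives are not independent checks. Dropping the fold threshold repeats the main counts here, and changing the eBayes settings or leaving out a DZ library keeps the same log2 changes. The counts themselves depended on the pseudocount. With 0.1 RPKM they were 1954 higher and 895 lower genes at 4-fold, 997 and 328 at 8-fold, 512 and 174 at 16-fold and 244 and 90 at 32-fold. The ratio of higher to lower genes at 4-fold ran from 2.18 with that pseudocount to 3.40.

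The balance of rises and falls also differed with level. Levels are the mean of the 6 EZ and MZ libraries, which uses both zones alike. Among the 1343 tested genes at 100 RPKM and over, 194 were higher (14.4%) and 110 lower (8.19%) in EZ. Among the 5322 genes at 20 to 100 RPKM, 819 were higher (15.4%) and 719 lower (13.5%). In the 9350 genes at 5 to 20 RPKM the order turned, with 1134 higher (12.1%) and 1371 lower (14.7%). Of the 10851 genes under 5 RPKM, 1037 were higher (9.56%) and 1183 lower (10.9%). The excess of rises at 100 RPKM and over and of falls at 5 to 20 RPKM was found in 17 of 17 alternatives. At 20 to 100 RPKM the larger number turned in 2 of them and under 5 RPKM in 1. These shares carry no test, since genes are not replicates.

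**Figure D3:**
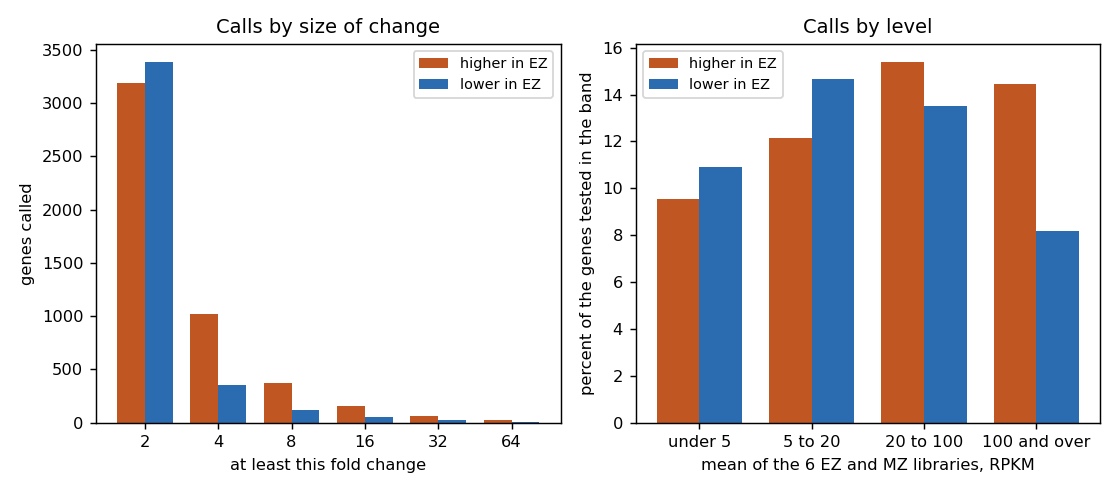
Left, number of genes called higher and lower in EZ than in MZ at or above each fold change on the log2(RPKM + 1) scale. Right, percent of the tested genes in each level band that were called in each direction. Lower genes were more numerous at 2-fold (3383 against 3184 higher), while from 4-fold on the higher genes were (1017 against 351 lower).

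Among the genes with a mean of at least 20 RPKM in the higher zone and no overlap between the EZ and MZ libraries, 1413 qualified as higher and 1176 as lower. The 15 with the largest rise spanned 72.8 to 2811 RPKM over the EZ libraries and 0 to 54.5 RPKM over the MZ libraries. Their change was 6.49 to 9.03 log2 units, and 11 of the 15 had a still higher mean in DZ. No matching share over all called genes is given here, so this count is not read as a trait of the largest rises. The 15 with the largest fall spanned 0 to 10.6 RPKM in EZ and 14.8 to 1109 RPKM in MZ, with a change of -9.22 to -5.23 log2 units. Of these 15, 5 were listed at 0 in all EZ libraries, and 7 had a higher mean in DZ than in EZ. The 5 genes at 0 in EZ could not fall further, and the median EZ mean of the 15 was 1.46 RPKM. These counts therefore cannot show whether the largest falls went on in DZ.

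GRMZM2G502562 had the largest rise. It stood at 1609, 2811 and 1769 RPKM in EZ replicates 1, 2 and 3, against 0, 0.0129 and 54.5 RPKM in MZ replicates 1, 2 and 3. The 2 zones did not overlap, and MZ replicate 3 stood apart from the other MZ libraries, which were at or near 0. Its mean was 2063 ± 653 RPKM in EZ and 18.2 ± 31.5 RPKM in MZ (SD, n = 3 each), a 114-fold ratio of means. The fitted change, the difference between the zone means of log2(RPKM + 1), was larger, at 9.03 ± 1.36 log2 units (limma adjusted p = 0.00122). With MZ values at and near 0 it depends on the pseudocount and was 11.20 log2 units with one of 0.1 RPKM. Without MZ replicate 3 the change was 10.96 log2 units, and without MZ replicate 1 or 2 it was 8.06 or 8.07. In the DZ libraries it was at 1459, 2860 and 1779 RPKM, with a change of -0.04 ± 1.36 log2 units from EZ to DZ (limma adjusted p = 0.986).

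GRMZM2G085967 stood at 913, 464 and 638 RPKM in EZ replicates 1, 2 and 3, against 0.361, 1.45 and 5.03 RPKM in MZ replicates 1, 2 and 3. Every EZ library was far above every MZ library, and EZ replicate 1 was the highest. The mean was 672 ± 226 RPKM in EZ and 2.28 ± 2.44 RPKM in MZ (SD, n = 3 each), a 295-fold ratio of means. The fitted change was 7.90 ± 0.49 log2 units (limma adjusted p = 4.31e-05). It rose again in DZ, to 2749, 2654 and 3147 RPKM, by a further 2.13 ± 0.49 log2 units (limma adjusted p = 0.00612).

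GRMZM2G551958 had the largest fall. It was listed at 0 in all 3 EZ libraries, against 464, 908 and 504 RPKM in MZ replicates 1, 2 and 3. With the EZ listed at 0 the fitted change of -9.22 ± 0.88 log2 units (limma adjusted p = 0.000198) depends on the pseudocount and is no measure of fold, and it was -12.54 with a pseudocount of 0.1 RPKM. In the DZ it was listed at 0 in replicates 1 and 2 and stood at 11.9 RPKM in replicate 3. That DZ value enters the error of the fitted change, which was 0.246 log2 units without DZ replicate 3.

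The clone-named model AC187217.4_FG004 came next among the falls. It was at 0, 9.57 and 0 RPKM in EZ replicates 1, 2 and 3, against 420, 1109 and 211 RPKM in MZ replicates 1, 2 and 3. The groups did not overlap, although the MZ libraries varied over several-fold. The fitted change was -7.72 ± 0.92 log2 units (limma adjusted p = 0.000474), and it was -8.85 without EZ replicate 2 and -7.09 without MZ replicate 2. Since 2 of the EZ values are 0, it too depends on the pseudocount, and it was -9.97 with one of 0.1 RPKM. It was listed at 0 in all 3 DZ libraries.

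**Figure D4:**
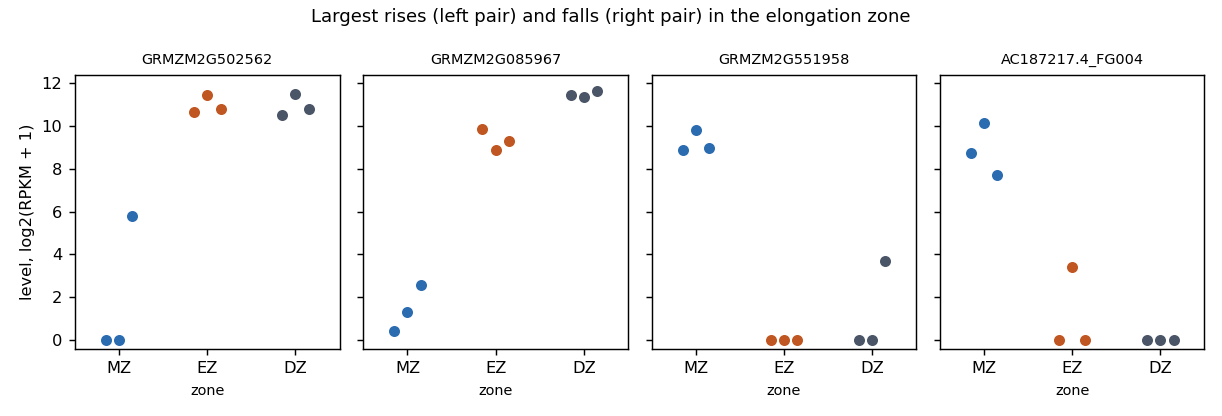
Level of the 2 genes with the largest rise (left pair) and the 2 with the largest fall (right pair) in EZ, on the log2(RPKM + 1) scale. Each point is 1 library, with replicates 1 to 3 from left to right in each zone. GRMZM2G502562 is near 0 in 2 of the 3 MZ libraries and at 54.5 RPKM in MZ replicate 3, while both falling genes are at 0 in most EZ and DZ libraries.

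Few genes were present in 1 of these zones and at 0 in the other. In all, 42 rows were listed at 0 in the 3 MZ libraries and reached at least 1 RPKM in each of the 3 EZ libraries, and 41 of them were called. Their median level in EZ was 4.77 RPKM and the highest 61.2 RPKM, and 32 of the 42 were at 1 RPKM or more in all DZ libraries. In the other direction, 33 rows were listed at 0 in the 3 EZ libraries and at 1 RPKM or more in each MZ library, all of them called. Their median level in MZ was 9.01 RPKM and the highest 626 RPKM, and 16 of the 33 were at 0 in all DZ libraries too. Rows of both kinds change by at least 2-fold on the log2(RPKM + 1) scale by construction. They also pass the filter of 1 RPKM in 3 libraries through the zone where they are present. Nothing is therefore read from how many of them were called. A listed 0 can also be a failed estimate.

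The highest levels were reached by genes that were not called. The gene with the highest mean in both zones stood at 10143, 9826 and 5831 RPKM in EZ replicates 1, 2 and 3, against 12594, 10573 and 10057 RPKM in MZ replicates 1, 2 and 3, and was not called (limma adjusted p = 0.421). In the DZ it was at 2280, 2321 and 924 RPKM. Of the 5 genes with the highest means in EZ, 3 were also among the 5 highest in MZ and none of these 3 was called. The other 2 were higher in EZ. The first of them stood at 4410, 3939 and 3164 RPKM in EZ against 1124, 1079 and 1083 RPKM in MZ, a change of 1.79 ± 0.21 log2 units (limma adjusted p = 0.000427). The second had a change of 1.26 ± 0.31 log2 units (limma adjusted p = 0.00986).

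The lists of the 100 most abundant genes of EZ and of MZ shared 64 genes, which is 64 of the 100 in each list. In the EZ list 20 of 100 genes were called higher and 0 lower, and in the MZ list 3 were called higher and 3 lower, against 11.9% and 12.6% of all genes tested. A list chosen by its level in EZ favours genes that are higher there, so nothing is read from these counts. The EZ had more genes at 100 RPKM and over, with 1451, 1413 and 1414 in its replicates against 1315, 1319 and 1306 in the MZ replicates. It had fewer at 1000 RPKM and over, with 53, 55 and 39 against 81, 57 and 56. Neither count overlapped between the zones, and each reached p = 0.1 in a two-sided exact permutation test over the 6 libraries, the smallest value that 3 against 3 allows (p = 0.2 when adjusted over the 4 such measures compared). The number of genes that make up 50% of the summed RPKM overlapped between the zones (911, 916 and 1174 in EZ, 761, 892 and 1021 in MZ, exact permutation p = 0.4). Within same-numbered pairs it was higher in EZ in 3 of 3, by 150, 24 and 153 genes, and the counts at 100 RPKM and at 1000 RPKM also differed in 1 direction in all 3 pairs. Each of these 3 measures then had p = 0.25 in an exact paired permutation test, the smallest that 3 pairs allow. The share of the 100 most abundant genes also overlapped, and it averaged 17.0% ± 1.38 in EZ and 18.0% ± 1.09 in MZ (SD, n = 3 each, exact permutation p = 0.5).

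The called genes made up different shares of the measured transcripts. The genes called higher held 23.4%, 19.6% and 20.7% of the summed RPKM in EZ replicates 1, 2 and 3, against 5.27%, 5.08% and 6.29% in MZ replicates 1, 2 and 3. The genes called lower held 4.05%, 5.08% and 4.71% in EZ, against 13.3%, 14.1% and 12.6% in MZ. These genes were chosen by this contrast, so the shares describe their size and carry no test. With no fold threshold the shares of the higher genes were 34.3% in EZ and 13.4% in MZ, and those of the lower genes 14.1% and 28.8%.

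In the DZ, whose libraries were not compared in that contrast, the higher genes held 34.3%, 36.1% and 36.2% of the summed RPKM and the lower genes 2.85%, 2.85% and 2.17%. The median level of the genes called higher was 3.15 ± 0.717 RPKM in MZ, 15.96 ± 1.79 in EZ and 25.2 ± 2.56 in DZ (SD over the 3 library medians of a zone). For the genes called lower it was 12.5 ± 0.647, 3.74 ± 0.526 and 1.95 ± 0.367 RPKM. The median over all tested genes was 6.89 ± 0.533, 6.58 ± 0.345 and 6.78 ± 0.267 RPKM in the same zones. As groups, the genes higher in EZ stood higher again in DZ, and the genes lower in EZ stood lower again.

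**Figure D5:**
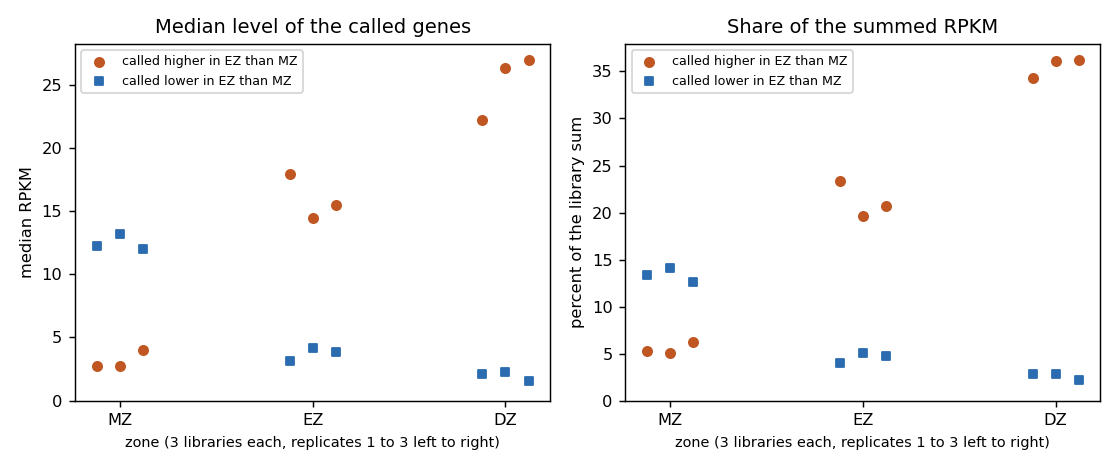
Median RPKM (left) and percent of the summed RPKM (right) of the 3184 genes called higher and the 3383 genes called lower in EZ than in MZ, in each of the 9 libraries. Each point is 1 library. The higher genes hold 5.08% to 6.29% of the sum in MZ, 19.6% to 23.4% in EZ and 34.3% to 36.2% in DZ.

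The next step along the root, from EZ to DZ, had more calls in the same fit. It changed 9032 genes (33.6%), of which 4479 were higher in DZ than in EZ (16.7% of those tested) and 4553 lower (16.9%). Both contrasts use the EZ libraries, so their calls are given side by side and not matched gene by gene. Whether the number of calls differs between the 2 steps was not tested.

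How far the EZ had moved towards the DZ was read from genes chosen without the EZ libraries' level, those called between DZ and MZ. These were 13767 genes (51.2%), of which 6349 were higher in DZ than in MZ (23.6% of those tested) and 7418 lower (27.6%). The genes higher in DZ had reached a median of 43.6%, 30.4% and 39.0% of their MZ-to-DZ change in EZ replicates 1, 2 and 3. The genes lower in DZ had reached 52.3%, 38.5% and 46.0%. In both groups EZ replicate 1 was farthest along and EZ replicate 2 least far, the order also seen on the line from MZ to DZ. More than 50% of the change was reached by 2294 of the higher genes (36.1%) and 3257 of the lower genes (43.9%), counted on the mean of the 3 EZ libraries. The genes lower in DZ were thus 7.92 ± 0.858 percentage points ahead (SD over the 3 EZ libraries). These share the same MZ and DZ means, so the SD leaves out the spread of the MZ and DZ libraries. The lead was 5.61 without MZ replicate 3 and 9.80 without MZ replicate 1. It turned to -4.14 with a pseudocount of 0.1 RPKM and to -2.37 with a minimum of 5 RPKM.

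Some genes stood apart in the EZ from both neighbours. In 2047 tested genes (7.62%) all 3 EZ libraries were above all MZ and DZ libraries, and in 1327 (4.94%) all 3 were below. Where a ratio to the nearer zone could be formed, these peaks and troughs were mostly shallow. The EZ mean was at least 2 times the mean of the nearer zone in 543 of the 2047 and at least 4 times in 105, with a median ratio of 1.61. Among the 1327, the nearer zone was at least 2 times the EZ in 536 and at least 4 times in 143.

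Replicates of a zone differed in a way that ran across many called genes. Among the 3184 genes higher in EZ, EZ replicate 1 was the highest EZ library in 1704 (53.5%), replicate 2 in 501 and replicate 3 in 979. Among the 3383 lower genes, EZ replicate 1 was the lowest EZ library in 2161 (63.9%). In the MZ, replicate 3 was the highest MZ library for 2033 of the higher genes (63.9%). For the lower genes MZ replicate 3 was the lowest MZ library in 1455 (43.0%), against 1260 (37.2%) for replicate 1. The median over all tested genes was also highest in MZ replicate 3, at 7.42 RPKM against 6.35 and 6.92 in replicates 1 and 2. Among the called genes EZ replicate 1 thus most often held the EZ extreme. The genes were called with these same libraries. Matching shares over all tested genes were not computed, so nothing more is read from these counts.

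The calls were spread over all forms of maize ID. Of the 22484 tested genes whose ID starts with GRMZM2G, 11.96% were higher and 12.7% lower in EZ. Of the 3099 with GRMZM5G, 11.2% were higher and 11.6% lower, and of the 173 with GRMZM6G, 22 were higher and 28 lower. The clone-named models had fewer rows that could be tested, 1110 of 13390 (8.29%) against 22484 of 85952 (26.2%) for GRMZM2G. Of those tested, 127 were higher (11.4%) and 135 lower (12.2%), shares near those of all genes tested.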

How the data were processed

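mRNA of maize root zones was measured by RNA sequencing in 3 libraries each of MZ, EZ and DZ, which the design text calls biological replicates. Libraries were grouped by their titles. FastQC and TopHat2 were run, per the submitters' processing notes, and reads were mapped with the Ensembl release 19 annotation of AGPv3, per the labels. Not given in the sources used here are versions, the counting tool, gene lengths, strand and filters. The authors deposited RPKM values per gene, and 1 column stacks the libraries of a zone and number of several species. No column of other samples was used. RPKM totals differed between zones, at 737690 to 778764 in EZ, 762264 to 790199 in MZ and 704932 to 717892 in DZ.

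limma 3.58.1 in R 4.3.3 (lmFit, eBayes with trend and robust estimation) was run on log2(RPKM + 1) of the 9 maize libraries, over genes with at least 1 RPKM in 3 libraries, with two-sided tests and Benjamini-Hochberg adjustment over all tested genes. The pseudocount understates changes of low genes. Errors of log2 changes are limma's standard errors, which draw on all 9 libraries. They are not the spread of the compared zones alone. The fit was tested on simulated data first. Relative depth was the peak of the ratio of values between 0.02 and 0.3 RPKM. Same-numbered EZ and MZ libraries deviated together from their zone means (correlations across genes 0.122, 0.285 and 0.357 for numbers 1, 2 and 3). Libraries with different numbers had correlations from -0.319 to 0.066. Centring on the zone means makes positive values come with negative ones, so these are not separate evidence. MZ replicate 1 stood at 0.122 with EZ replicate 1 and at 0.066 with EZ replicate 2, a small difference. The sample titles state no pairing, so pairing by number is an assumption drawn from these values. A fit with the number as a block was an alternative.

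Named genes are those with the largest change, 2 each way, among called genes with at least 20 RPKM in the higher zone and no overlap. The genes and comparisons were chosen with earlier results of these data known, and the shares by level, by library and along the line and the paired permutation tests were added after seeing these data. Gene lists prepared by name could not be matched to the IDs. Near-identical genes may share reads. Alternatives were the pseudocount, the filter, quantile normalization, the libraries fitted, the block, the fold threshold, the eBayes settings and each library left out, with the tested genes kept. Python 3.11.15, pandas 2.3.3, NumPy 2.4.6, SciPy 1.17.1 and matplotlib 3.10.9 were used.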

Additional observations from a re-analysis of the deposited data

How the results depend on the processing

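No gene called in EZ against MZ turned its direction among the calls of any alternative. This could hardly come out otherwise, so nothing is read from it. Changes of the filter, block, fold threshold, eBayes settings or DZ libraries keep a gene's log2 change from MZ to EZ. The other alternatives share most or all of their libraries with the main fit. Without a fold threshold the counts were 5582 higher and 7220 lower in EZ than in MZ, and 8146 genes were lower in DZ than in EZ. The other total counts of these 2 comparisons stayed within 1.5 times the reported ones, but counts by size and level moved further. Under 5 RPKM a pseudocount of 0.1 RPKM gave 1716 higher and 1982 lower genes, and a minimum of 5 RPKM, which tests fewer such genes, gave 701 and 285. Without a fold threshold every level band moved by over 1.5 times. Leaving out 1 library gave 2784 to 3455 genes higher and 2815 to 3648 lower in EZ than in MZ, and 3966 to 4578 higher and 4149 to 4825 lower in DZ than in EZ. With the replicate number as a block, taking the numbers as pairs, 3361 genes were higher and 3509 lower in EZ than in MZ. Of these, 3173 and 3376 were called without the block, and the 4 named genes kept their calls. Quantile normalization left 3168 higher and 3304 lower and left the median change of all genes at -0.07 log2 units. A pseudocount of 0.1 RPKM gave 3987 and 4344, and no filter gave 3031 and 3249. The lead of the genes lower in DZ over those higher in DZ turned to -4.14 and -2.37 percentage points with a pseudocount of 0.1 RPKM and a minimum of 5 RPKM, and the cause was not tested. In all 16 alternatives other than the fold threshold, 2139 higher and 1835 lower genes were called each time. With no counts, the precision of low values is unknown.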

Other observations

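In 1210 maize rows above 0, the values of all 9 libraries were the same as in another row. Of these rows 106 were tested, and 8 were called higher (7.55%) and 20 lower (18.9%) in EZ than in MZ. Of all genes tested, 11.9% were called higher and 12.6% lower. Rows with the same values get the same fit and the same call, and every copy was counted. The called rows are therefore not separate results, and no excess is read from these shares. Each library also held 1348 to 1522 rows with values above 0 and under 0.005 RPKM.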
